A study of Mus musculus with 8 samples.

Results

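The cells described here were the barcodes of single-cell libraries of the mouse organ of Corti that carried transcripts of a set of genes led by Notum, Emcn and Npy, and they are called Notum/Emcn cells below. They were selected on their own transcripts. A barcode had to have at least 500 detected genes and under 25% mitochondrial UMIs, at least 1 UMI of at least 3 of the 6 genes Npy, Notum, Tnfaip6, Bhmt2, Emcn and Tnfrsf11b, and no UMI of Ptprc, Pecam1 or Epcam, which mark leukocytes, endothelium and epithelium. A UMI is a molecular tag that counts 1 captured transcript. Of 6023 barcodes that passed the depth and mitochondrial limits, 1499 (24.9%) met the rule, and they held 29.4% of the UMIs of those barcodes. The working label for them was cochlear fibrocytes, and how far the data bear out that name is given below.

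The 8 libraries came from dissected organs of Corti, and per the study's methods the lateral wall, where most cochlear fibrocytes sit, was taken away. Coch P12 was uninjected at postnatal day 12 (n = 2), Coch + Tmx P26 (n = 3) and Coch + Tmx P33 (n = 2) had received tamoxifen at P12 to P13 and were taken at P26 and P33, and Coch P33 was uninjected (n = 1). All animals, the uninjected ones included, carried Fgfr3iCre, Atoh1-HA, Chrna9-GFP and Rosa26-CAG-loxP-stop-loxP-tdTomato. Tamoxifen lets the Cre driven by Fgfr3, a gene of Deiters and pillar supporting cells, switch on Atoh1, the hair cell transcription factor, so the Notum/Emcn cells are bystanders of the design and not its target. There was no induced P12 library, so later against Coch P12 is a difference of age in which 5 of the 6 later libraries were also labelled as induced, and age and induction cannot be told apart in it. The sources used here do not say whether replicates are separate animals, and p-values measure only the spread between these libraries.

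The libraries held 3972800 to 13423524 UMIs. Notum/Emcn cells numbered 500 and 283 in Coch P12, 172, 109 and 95 in Coch + Tmx P26, 92 and 96 in Coch + Tmx P33 and 152 in the uninjected Coch P33. Their median depth was 8985.5 and 9455 UMIs in Coch P12 and 3824.5 to 6666 in the later libraries. No pair of libraries shared more than 3 barcodes, or more than 1 Notum/Emcn barcode. Over all kept barcodes Atoh1 stood at 17.5 to 23.7 CPM (UMIs scaled to a common library total) in the 3 uninjected libraries and at 90.5 to 524 in 4 induced ones. The P26 library labelled rep 3 of Coch + Tmx had 12.3, below every uninjected library, so it goes against its label, and results are given with and without it where it matters.

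Notum is a secreted enzyme that takes the lipid off Wnt proteins and so silences them, and it is itself a target of Wnt signalling. Npy is a neuropeptide best known from neurons. Tnfaip6 (TSG-6) binds and crosslinks hyaluronan, Tnfrsf11b (osteoprotegerin) is a decoy receptor that restrains bone resorption, Bhmt2 remakes methionine from homocysteine, and Emcn (endomucin) is a sialomucin best known from endothelium. Coch (cochlin) is the abundant matrix protein of cochlear fibrocytes, and Pou3f4 and Tbx18 are transcription factors of otic mesenchyme. In mouse build mm10 (GRCm38) Notum lies on chr11:120653788-120661193, Emcn on chr3:137341062-137431069, Npy on chr6:49822710-49829507, Tnfaip6 on chr2:52038113-52056681, Bhmt2 on chr13:93656097-93674302 and Tnfrsf11b on chr15:54250619-54278484. These are whole gene spans from RefSeq. The libraries were read from the 3′ end of transcripts, so a count says nothing about isoforms.

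The 6 genes of the rule were carried very unequally, and Npy, which gives the cells part of their label, was the rarest. Emcn had a UMI in 99.5% of the cells, Tnfaip6 in 80.2%, Notum in 78.6%, Tnfrsf11b in 72.9%, Bhmt2 in 25.8% and Npy in 21.0%. These shares follow from the rule and are a description. Choosing the cells by the other 5 genes gave Npy in 18.2% of 1448 cells, Bhmt2 in 23.3% of 1451, Tnfrsf11b in 62.8% of 1091, Notum in 70.0% of 1070, Tnfaip6 in 70.7% of 1013 and Emcn in 99.1% of 794. In 383 macrophage barcodes of like depth (median 6872 UMIs against 7199), which should lack these transcripts, the shares were 2.87% for Npy, 2.61% for Bhmt2, 5.74% for Notum, 8.09% for Tnfaip6, 13.1% for Tnfrsf11b and 25.6% for Emcn. Of those macrophage barcodes 6.79% carried at least 3 of the 6 genes.

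The most frequent combination was Notum, Tnfaip6, Emcn and Tnfrsf11b together (284 cells, 18.9%), followed by Notum, Tnfaip6 and Emcn (242, 16.1%), Tnfaip6, Emcn and Tnfrsf11b (210, 14.0%) and Notum, Emcn and Tnfrsf11b (156, 10.4%). All 6 genes were found in 70 cells (4.67%). Barcodes just outside the rule, with 2 of the 6 genes, numbered 1037 with a median of 4837 UMIs, and those just inside it, with 3, numbered 709 with a median of 5761. Depth moved with the number of genes found, to a median of 18713 UMIs at 6 of 6. So did genes that the rule did not name. These classes held kept barcodes of any cell type with no UMI of Ptprc, Pecam1 or Epcam, so the mix of cell types can also change between them. Emilin2, an extracellular glycoprotein of elastic fibres, stood at 87.5 CPM in barcodes with none of the 6 genes, 1490 at 2, 4206 at 3, 7883 at 4 and 7410 at 6. Decorin (Dcn), a collagen-binding proteoglycan of many fibroblasts, ran 1729 CPM at 2 genes, 1130 at 3, 487 at 4 and 17.6 at 6. Transcripts of both kinds were present on either side of the edge of the rule, so the number of genes asked for sets how much Dcn the chosen cells hold.

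By library the Notum level was 470 and 276 CPM in Coch P12, 462, 579 and 308 in Coch + Tmx P26, 379 and 467 in Coch + Tmx P33 and 352 in the uninjected Coch P33. The Coch P12 values lay inside the range of the later ones. The Npy level was 19.8 and 15.8 CPM in Coch P12, 119, 54.8 and 49.3 in Coch + Tmx P26, 158 and 67.0 in Coch + Tmx P33 and 53.2 in the uninjected Coch P33, with every later library above both Coch P12 libraries. Bhmt2 had the same order, at 25.8 and 23.0 CPM in Coch P12 and 33.9 to 75.3 later, and so did Tnfrsf11b, at 206 and 256 against 309 to 927, and Tnfaip6, at 181 and 207 against 229 to 408. Emcn stood at 1407 and 1322 CPM in Coch P12 and 1588 to 2430 later. Since these genes chose the cells, and the share of cells that meet a rule on UMIs depends on depth, their levels across groups are given with no test.

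Cochlear fibrocyte genes gave the name only part of its base. Coch was found in 84.8% of the Notum/Emcn cells, and 42.3% of macrophage barcodes also had a UMI of it. Its level was compared with that in 895 other stromal barcodes, which carried at least 3 of Col1a2, Col3a1, Dcn, Ogn and Lum and did not meet the rule. The Coch level was a median of 4350 CPM in the Notum/Emcn cells and 4148 in the other stromal barcodes. It was higher in 6 of 8 libraries and lower in Coch + Tmx P33 rep 2 and in the P26 library labelled rep 3. The log2 ratio within libraries had a median of 0.34 and ran from −0.29 to 1.53. It was largest in the uninjected libraries, at 1866 against 644 and 1867 against 729 CPM in Coch P12 and 3482 against 1543 in Coch P33. Pou3f4 ran from 364 to 616 CPM (median log2 ratio to other stromal 0.17) and Tbx18 from 241 to 349 (−0.10). Genes that mark particular types of lateral wall fibrocyte were not higher: the median log2 ratio was −2.74 for Car3, a carbonic anhydrase, −1.95 for Gjb2, the gap junction protein connexin 26, −1.01 for Otos (otospiralin) and −0.89 for Slc12a2, the Na-K-Cl cotransporter. Of 18 genes of the fibrocyte list, 3 (Emilin2, Otor and Rarres1) were at least 2-fold higher in every library, and the list's median log2 ratio was −0.06 against −0.05 over all genes. The Notum/Emcn cells thus carried Pou3f4 and Tbx18 near the median level of their stromal neighbours, while Coch differed by library. They are called here by their leading genes and not as a fibrocyte type. The study gives Emilin2 as a marker of tympanic border cells under the basilar membrane, a name it gave to some of its clusters. Whether the Notum/Emcn cells are of that type was not tested. They overlapped widely with barcodes that carried both Otor and Rarres1: 1270 were shared, 84.7% of the Notum/Emcn cells and 64.4% of the 1972 such barcodes. Only 182 (12.1%) were among the 523 barcodes with both Aldh1a2 and Ccl11, 34.8% of those.

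Within each library the sums of the Notum/Emcn cells were then set beside those of the other stromal barcodes. Since the cells were chosen by their transcripts, this contrast is a description with no test. Of 12003 genes measured outside the rule, 45 were at least 2-fold higher in every library (0.375%) and 38 at least 2-fold lower in every library (0.317%). By any amount, 4.17% of genes were higher in all 8 libraries and 6.09% lower in, or not above, all 8. The Notum/Emcn cells were deeper than the other stromal barcodes (median 7199 against 5101 UMIs). With both sets held to barcodes of 3000 to 15000 UMIs, 24 of the 45 higher and 5 of the 38 lower genes passed again. The matrix gene Emilin2 ran from 3171 to 9179 CPM (median 5322) in the Notum/Emcn cells against 260 to 760 (median 496) in the other stromal barcodes. Rarres1, a retinoid-responsive membrane protein, had a median of 4215 against 214 CPM, and Otor (otoraplin), a small secreted protein of the inner ear, 2761 against 488. The potassium channel gene Kcnk3 (TASK-1) had a median of 168 CPM, lowest 64.7, against 0.877 in the other stromal barcodes, highest 25.2. No library of the Notum/Emcn cells overlapped the other stromal range for any of these 4 genes. Fn1 (fibronectin) had a median of 427 against 82.2 CPM, Nov (CCN3) 522 against 67.2 and Dapl1 174 against 12.5.

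**Figure D1:**
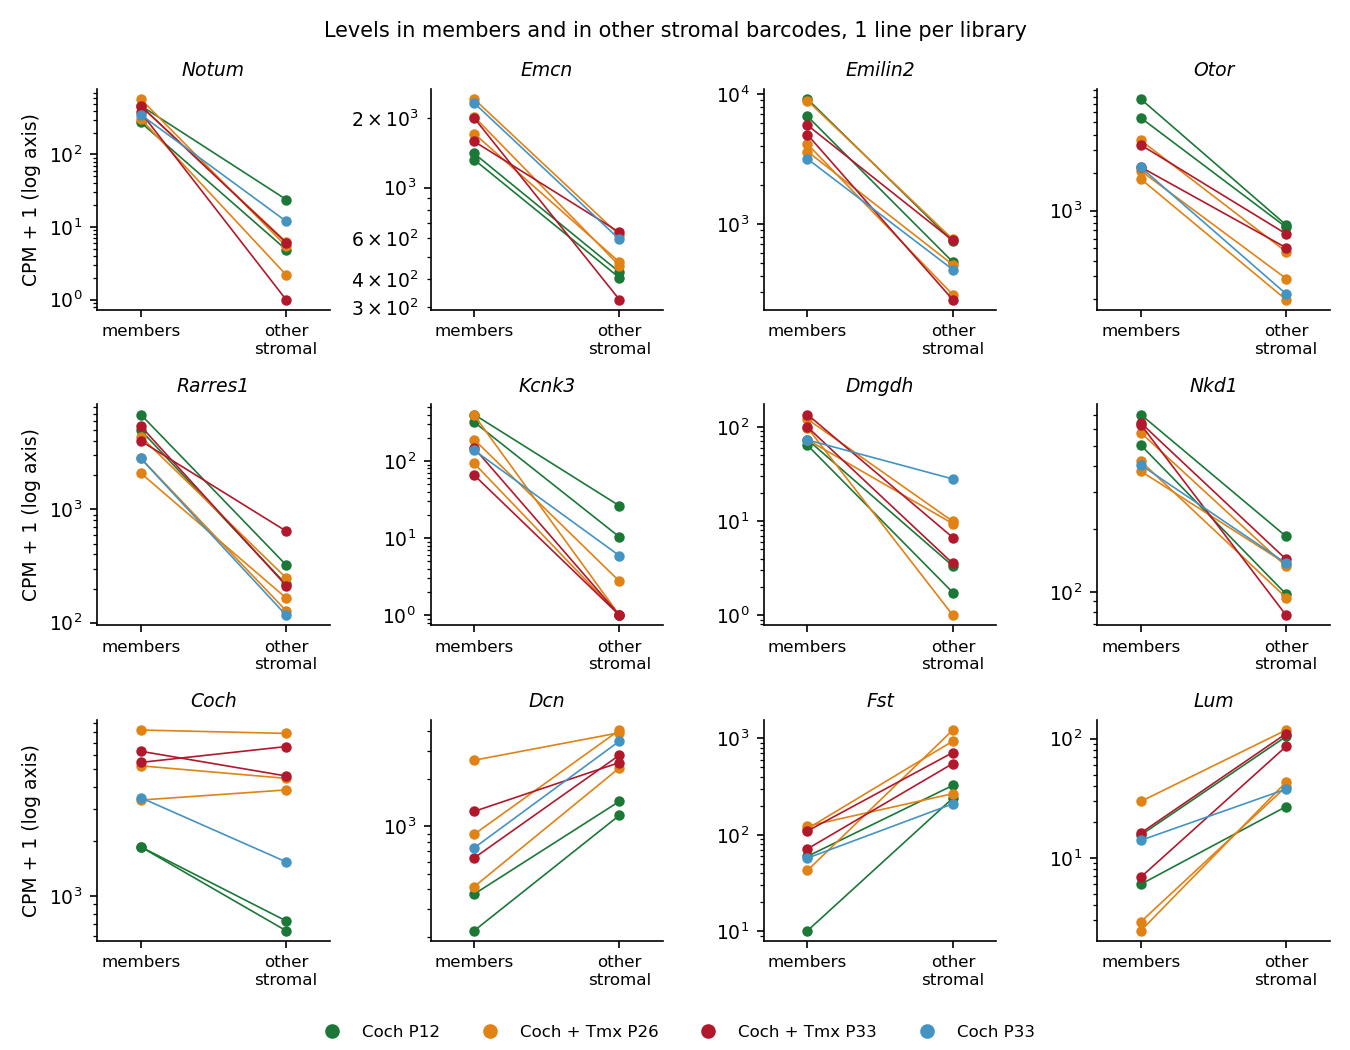
Levels of 12 genes in the Notum/Emcn cells (members) and in other stromal barcodes, as CPM + 1 on a log axis. Each line joins the 2 values of 1 library, coloured by group. Every line of Emilin2, Otor, Rarres1, Kcnk3, Dmgdh and Nkd1 falls to the right, every line of Dcn, Fst and Lum rises, and Coch crosses, being higher in members in 6 of 8 libraries.

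Of the gene lists examined, the Wnt target genes had the largest share on the high side. Axin2, Lef1, Nkd1, Nkd2, Sp5 and Tcf7 are genes that Wnt signalling through beta-catenin is known to turn on, several of them feedback inhibitors, and Notum itself belongs with them. Notum is also a gene of the rule, so the choice of cells can set part of this contrast. Nkd1 was 2.57-fold higher in cells with a Notum UMI than in those without one. Of 9 genes of the Wnt target list measured outside the rule, 7 were higher in all 8 libraries (against 4.17% of all genes), 2 of them at least 2-fold in each (Nkd1 and Sp5), and 1 (Ccnd1) was lower in all 8. The list's median log2 ratio was 1.07, against −0.05 over all genes. Nkd1, which restrains Dishevelled, had a median of 540 CPM against 133 and its lowest Notum/Emcn library (377) lay above the highest other stromal one (183). Lef1 had a median of 108 CPM against 33.1, Axin2 125 against 43.9, Sp5 30.3 against 2.83 and Bambi, a decoy receptor of the TGF-beta family, 277 against 63.7. Wif1, a secreted protein that binds Wnts, had a median of 112 CPM against 8.34 and was higher in every library, by a log2 ratio of 0.69 to 4.47. Of 11 Wnt inhibitor genes 3 were higher in all 8 libraries and 1, Sfrp4, was lower in all 8, at a median of 13.1 against 85.1 CPM. The ligand side did not share this: 1 of 11 Wnt ligand and carrier genes was higher in all 8, and Wnt5a, the most abundant ligand named here, had a median of 135 CPM against 238.

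The methionine and choline side of the rule extended to its gene neighbours. Bhmt, the betaine-homocysteine methyltransferase next to Bhmt2, had a median of 20.5 CPM against 1.89, and Dmgdh, the mitochondrial dimethylglycine dehydrogenase that takes up the product of Bhmt, 84.6 against 4.11. Dmgdh ran from 62.8 to 134 CPM in the Notum/Emcn cells and from 0 to 27.0 in the other stromal barcodes. These were the only genes of 17 measured on the one-carbon list that were at least 2-fold higher in every library. Other members of that list that nearly all cells use, such as Mat2a (145 against 147 CPM) and Shmt2 (11.97 against 13.05), had like levels in both sets. Bhmt2 and Dmgdh are transcribed away from each other. Their start sites in RefSeq (GRCm38.p6) are at 93674302 on the minus strand and 93674436 on the plus strand of chromosome 13. The stretch of 133 bases between them is shown because both genes of the pair were high in the same cells, and it is 69.9% G and C. It reads, on the plus strand of chr13:93674303-93674435:
Bhmt2 to Dmgdh: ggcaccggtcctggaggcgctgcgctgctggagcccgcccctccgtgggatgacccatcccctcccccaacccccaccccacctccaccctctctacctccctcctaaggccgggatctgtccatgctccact
Among the 386 cells with a Bhmt2 UMI, which were deeper (median 10106 UMIs against 6490), the pooled Dmgdh level was 2.31 times that of the cells without one, higher in 8 of 8 libraries. Those cells also had more Emilin2 (1.41 times, 8 of 8) and less Fst (0.0501 times, 0 of 8 higher), so the split was not particular to Dmgdh.

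Other enzymes and regulators on the high side were Hal, the first enzyme of histidine breakdown (34.6 against 3.04 CPM), Pycr1 of proline synthesis (13.5 against 2.15), Sptssb, a subunit of serine palmitoyltransferase (55.5 against 2.23), Fabp5, a fatty acid carrier (94.7 against 9.99), and the transcriptional regulator Id4 (35.7 against 1.73). Notumos, the opposite-strand gene of Notum, stood at 102 against 2.31 CPM. Emcn and Kdr, the VEGF receptor 2, are both best known from endothelium, and Kdr was at least 2-fold higher in every library, at 11.2 against 1.35 CPM. Cdh5, which defines endothelial cells, was at 19.8 against 48.6 CPM and not above the other stromal level in any library, while Flt1, the VEGF receptor 1, was at 48.7 against 16.2 CPM and higher in all 8. Of 8 endothelial list genes outside the rule 3 were higher and 1 lower in all 8 libraries, and Kdr alone passed the 2-fold limit in each. On the low side Fst (follistatin, an activin inhibitor) had a median of 64.8 against 435 CPM, Dmp1 and Phex, genes of osteocytes, 44.7 against 385 and 11.0 against 95.8, and Cemip, a hyaluronan-degrading protein, 30.1 against 261. Among 10 small leucine-rich proteoglycan genes measured, 0 were higher and 8 lower in all 8 libraries, with a list median of −2.11. Ogn, Dcn and Lum chose the other stromal barcodes, so their low side is partly set by that choice. The 22 collagen genes had a median log2 ratio of −1.0003, with 0 past the 2-fold limit in every library.

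The Notum/Emcn cells were not uniform. Across single cells the Emilin2 level had quartiles of 1415, 6063 and 9922 CPM, Otor 788, 3485 and 7459, Rarres1 579, 3939 and 7205 and Coch 213, 1149 and 5425. Cells with and without a Notum UMI also differed, but Notum is a gene of the rule. Cells without it met the rule through the other 5 genes, 210 of them through Tnfaip6, Emcn and Tnfrsf11b alone. Those genes were found in 27.5%, 76.6% and 34.7% of other stromal barcodes, and Notum in 3.35%. The rule thus sets part of this contrast, and of the splits by Npy and Bhmt2 below. In 1178 cells with a Notum UMI (median 7377 UMIs) the pooled Emilin2 level was 7988 CPM, and in the 321 without one (median 6501) it was 1338. The order was the same in 8 of 8 libraries for Emilin2, for Otor (5.18-fold), Rarres1 (5.74-fold), Kcnk3 (16.5-fold), Dmgdh (5.09-fold) and Nkd1 (2.57-fold). The reverse held in 8 of 8 libraries for Dcn (289 CPM with and 1926 without, a ratio of 0.150), Fst (0.0886) and the chemokine Ccl11 (0.106). Coch was 1.32-fold higher with Notum, in 7 of 8 libraries.

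**Figure D2:**
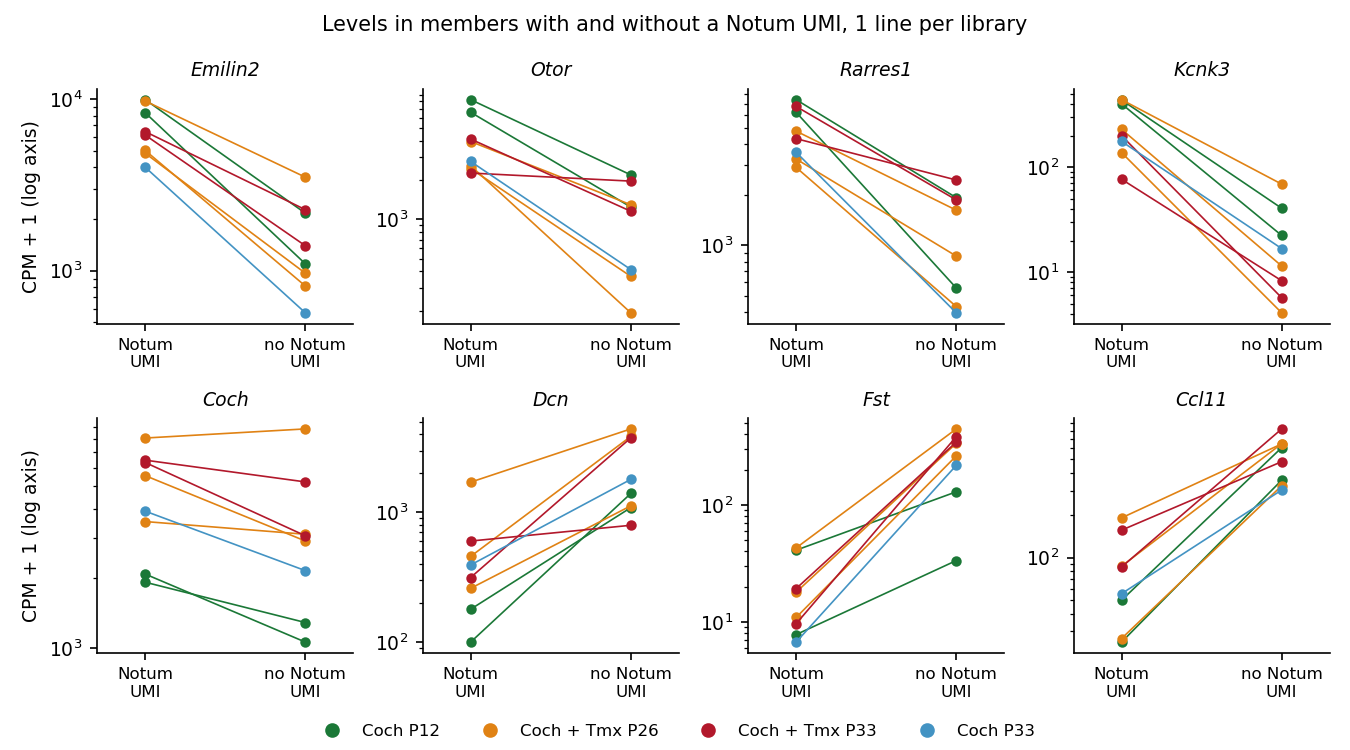
Levels of 8 genes in members with a Notum UMI and without one, as CPM + 1 on a log axis, 1 line per library, coloured by group. Emilin2, Otor, Rarres1 and Kcnk3 are higher with Notum in all 8 libraries, Dcn, Fst and Ccl11 lower in all 8, and Coch higher in 7.

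Npy did not divide the cells this way. In the 315 cells with an Npy UMI (median 8386 UMIs, against 6759 in the rest) the pooled Emilin2 level was 0.953 times that of the rest and Otor 0.871 times, while Nkd1 was 1.37 times (8 of 8 libraries higher) and Dcn 0.389 times (0 of 8 higher). Bhmt2 gave a split in the same direction as Notum for Emilin2, at 1.41 times (8 of 8), and Fst, at 0.0501 times (0 of 8 higher). The split was smaller than that of Notum for Emilin2 but not for Fst. Dcn was less divided by Bhmt2, at 0.692 times (3 of 8 higher). Of 6 neuropeptide Y system genes measured, receptors and processing enzymes, 1 was higher and 1 lower in all 8 libraries, and the median log2 ratio was −0.21. Npy1r had a median of 2.97 CPM against 4.38 in the other stromal barcodes, and Pam, which amidates the C-terminus of Npy and of other peptides, 494 against 289, higher in all 8. Cpe, a carboxypeptidase of peptide processing, had 151 against 263 and was higher in 1 of 8.

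The first comparison between groups concerned how many such cells there were. They made up 36.2% and 32.1% of kept barcodes in Coch P12, 21.5%, 19.2% and 16.1% in Coch + Tmx P26, 18.3% and 13.4% in Coch + Tmx P33 and 26.2% in the uninjected Coch P33. The 6 later libraries averaged 19.1% ± 4.42 (SD) and the 2 of Coch P12 34.2% ± 2.87 (SD), so the later mean was different by −15.0 percentage points. Every later library lay below both Coch P12 libraries, and the exact two-sided permutation test gave p = 0.0714, the smallest value that 6 against 2 libraries allow. Depth moved with this difference, since the rule needs a UMI of 3 genes. When each barcode was thinned to 2000 UMIs the share was 12.1% ± 3.54 later and 11.6% ± 3.24 in Coch P12, a difference of 0.514 points (exact permutation p = 0.857). In dissected tissue the share also moves with what else was dissected, and fewer cells and less RNA per cell cannot be told apart.

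**Figure D3:**
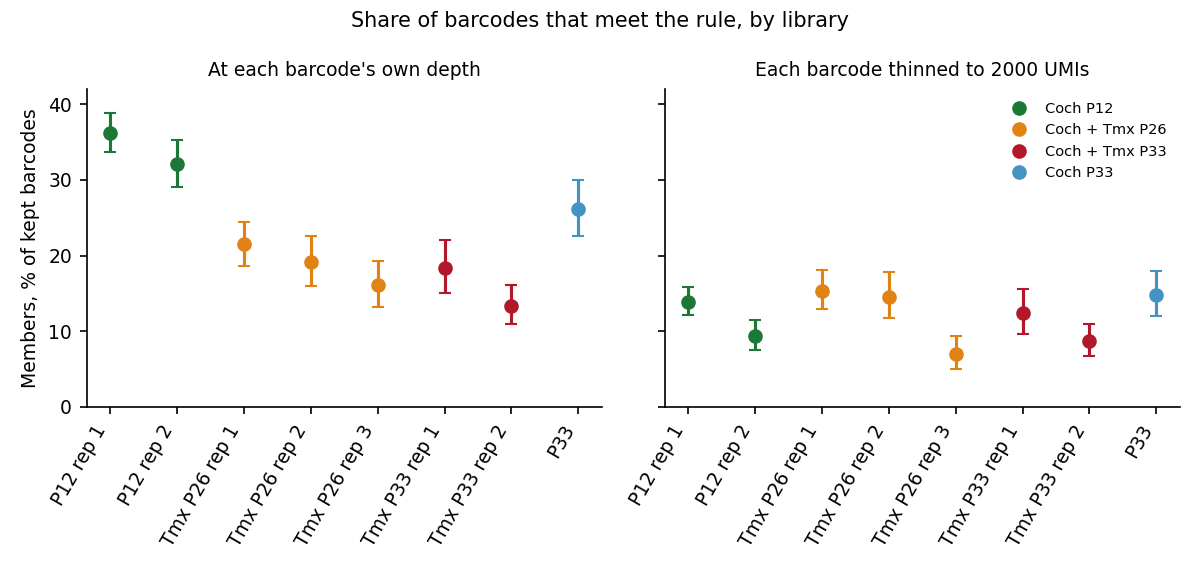
Share of kept barcodes that met the rule, in percent, by library, with 95% binomial intervals that cover counting error only. On the left each barcode is used at its own depth and both Coch P12 libraries lie above all 6 later ones. On the right every barcode is thinned to 2000 UMIs and the groups overlap.

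Within the Notum/Emcn cells, UMIs were summed per library and the mean of the 3 later groups was compared with Coch P12 by edgeR's quasi-likelihood test. Of 10197 genes tested outside the rule, 179 were higher (1.76%) and 197 lower (1.93%) at a Benjamini-Hochberg adjusted p under 0.05, and 353 of the 376 had no overlap between the 2 Coch P12 and the 6 later libraries. The median log2 change over all genes was −0.00. The fit leans on 2 libraries at P12: without Coch P12 rep 1 it called 98 genes and without Coch P12 rep 2 586. Leaving out either library of Coch + Tmx P33 gave 217 (rep 1) and 210 (rep 2). With the P26 library labelled rep 3 left out it called 421.

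Cartilage-type and fibrillar collagen genes fell together. Of 16 collagen genes tested, 11 were lower and 0 higher in the later libraries, and the list's median log2 change was −1.96 against −0.00 over all genes. Col2a1, the main collagen of cartilage and of the tectorial membrane, was at 657 and 849 CPM in Coch P12 and ran from 37.5 to 128 later (median 67.6), a log2 change of −3.57 (SE 0.30, edgeR adjusted p = 7.03e-05). Its partners fell as far: Col9a1 went from 454 and 518 CPM to 11.4 to 41.7 (log2 −4.38, SE 0.27, edgeR adjusted p = 2.58e-05), and Col11a1 from 591 and 312 to 14.4 to 48.5 (−3.98, SE 0.32, edgeR adjusted p = 6.88e-05). Col9a3, Col11a2, Col15a1 and Col5a2 followed with log2 changes of −4.59, −3.61, −2.96 and −2.72. Col1a2, a chain of the main collagen of bone and connective tissue, was at 1812 and 2009 CPM against 244 to 653 (log2 −2.24, SE 0.21, edgeR adjusted p = 0.000201). Every one of the 11 lay lower in all 6 later libraries than in both Coch P12 libraries. The 6 untested collagen genes of the list, Col1a1, Col6a1, Col6a2, Col6a3, Col12a1 and Col14a1, had too few UMIs.

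Genes that fold, crosslink and process collagen followed in part. Of 14 tested, 6 fell and 1 rose, with a list median of −0.91. Sparc, a collagen-binding glycoprotein, went from 2472 and 2618 CPM to 498 to 1161 (log2 −1.83, SE 0.23, edgeR adjusted p = 0.00128). Serpinh1, the collagen chaperone HSP47, fell by 0.89 (edgeR adjusted p = 0.038), Plod2, a lysyl hydroxylase, by 1.56, and Adamts2, a procollagen peptidase, by 1.98, both on the log2 scale. Pcolce, an enhancer of procollagen cleavage, rose, from 23.0 and 48.2 CPM to 59.1 to 207, while its relative Pcolce2 fell. Lox, which crosslinks collagen and elastin, had a log2 change of −1.17 and missed the threshold (edgeR adjusted p = 0.0537).

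Of 10 small leucine-rich proteoglycans tested, proteins that coat collagen fibrils, Prelp, Bgn and Ogn rose, Chad fell and 6 did not pass, and the list median was 0.98. Prelp went from 17.2 and 18.4 CPM to 67.1 to 122 (log2 2.39, SE 0.27, edgeR adjusted p = 0.000599), Bgn (biglycan) from 52.8 and 84.4 to 155 to 297 (1.68, SE 0.25, edgeR adjusted p = 0.00376) and Ogn from 9.16 and 37.8 to 83.6 to 190 (2.58, SE 0.52, edgeR adjusted p = 0.0193). Chad (chondroadherin), a cartilage protein, went from 109 and 112 CPM to 5.88 to 18.5 (−3.23, SE 0.23, edgeR adjusted p = 4.85e-05). Dcn was at 219 and 373 CPM against 415 to 2608 and did not pass (log2 1.73, edgeR adjusted p = 0.164), and Lum (log2 0.28), Omd (−0.19) and Ecm2 (−0.04) did not either.

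Of 7 chondrocyte and osteoblast list genes tested 3 fell (Bglap, Bglap2 and Ibsp), 0 rose and 4 did not pass, with a list median of −2.47. Bglap and Bglap2, near-identical osteocalcin genes whose reads can be split between copies, had 3059 and 2237 UMIs in the Coch P12 cells and 1 and 0 in the later cells. For Bglap2 this is at least 466.2-fold lower, with the floor of 3 counts set over the later libraries, and for Bglap the ratio was 1912 with a counting interval of 343 to 75560. Ibsp (bone sialoprotein) was at 349 and 1138 CPM in Coch P12 and a median of 6.52 later, with 230.0 in Coch + Tmx P33 rep 2. Its log2 change was −5.52 (edgeR adjusted p = 0.0133), but −0.75 (edgeR adjusted p = 0.874) without cells of 3 or more foreign marker UMIs. These transcripts were not particular to the Notum/Emcn cells: the pooled Bglap level went from 308 to 0.161 CPM in them, from 1269 to 0.617 in other stromal barcodes and from 83.8 to 0.396 in macrophage barcodes. The summed level of the chondrocyte and osteoblast list in the Notum/Emcn cells was 837 and 2083 CPM in Coch P12 and 77.7 to 361 later. Collagen transcripts were also found in macrophage barcodes, where Col2a1 went from 298 to 54.6 CPM and Col9a1 from 95.7 to 23.3. H19, Helt, Bglap3, C1ql2, Cacng4 and Smim5 were also among the 10 largest falls, and each had 8 or fewer UMIs left in the later cells. What part RNA from other cells had in these falls was not tested.

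Interferon-responsive and MHC genes rose together. Of 14 tested, 11 were higher and 0 lower in the later libraries, with a list median of 3.29 against −0.00 over all genes. Ifit1, an antiviral RNA-binding protein, went from 0.833 and 0.765 CPM to 12.4 to 179 (median 83.2), a log2 change of 6.65 (SE 0.97, edgeR adjusted p = 0.00329). Isg15, a ubiquitin-like modifier, went from 1.499 and 3.316 CPM to 32.3 to 433 (log2 5.80, SE 0.87, edgeR adjusted p = 0.00376), and Irf7, a transcription factor of the response, from 0.9996 and 1.531 to 6.65 to 51.8 (4.32, edgeR adjusted p = 0.00717). The most abundant member, Ifitm3, a membrane protein that restricts virus entry, went from 671 and 651 CPM to 1664 to 3629 (log2 1.86, SE 0.26, edgeR adjusted p = 0.00284). Of the antigen presentation genes H2-K1 (44.0 and 63.8 CPM against 153 to 210, log2 1.68) and H2-D1 (111 and 157 against 310 to 584, log2 1.73) rose, and B2m, at 228 and 316 against 497 to 1233, missed the threshold (edgeR adjusted p = 0.0506). Outside the list Ifi47, Oasl2 and Rtp4, also interferon-responsive, were among the 10 genes that rose most. All 11 were lower in both Coch P12 libraries than in every later one, the uninjected Coch P33 library included.

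The count of interferon genes called depended on the Coch P12 libraries: it was 2 without Coch P12 rep 1, and over all settings it ran from 2 to 14. With the P26 library labelled rep 3 left out it was 12, and the collagen count stayed at 11 lower. In the cells with a Notum UMI 11 interferon genes were higher and 12 of 15 collagen genes lower. Leaving out cells with 3 or more UMIs of markers of other cell types left 3813 testable genes, of which 7 of 11 interferon genes rose and 6 of 10 collagen genes fell. Macrophage barcodes also had higher pooled levels later, going from 14.8 to 409 CPM of Isg15 and from 1.97 to 92.6 of Ifit1. The summed macrophage markers in the Notum/Emcn cells were 73.8 and 164 CPM in Coch P12 and 91.4 to 1424 later, with 0 of 10 called. Their part in the interferon result was not tested.

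**Figure D4:**
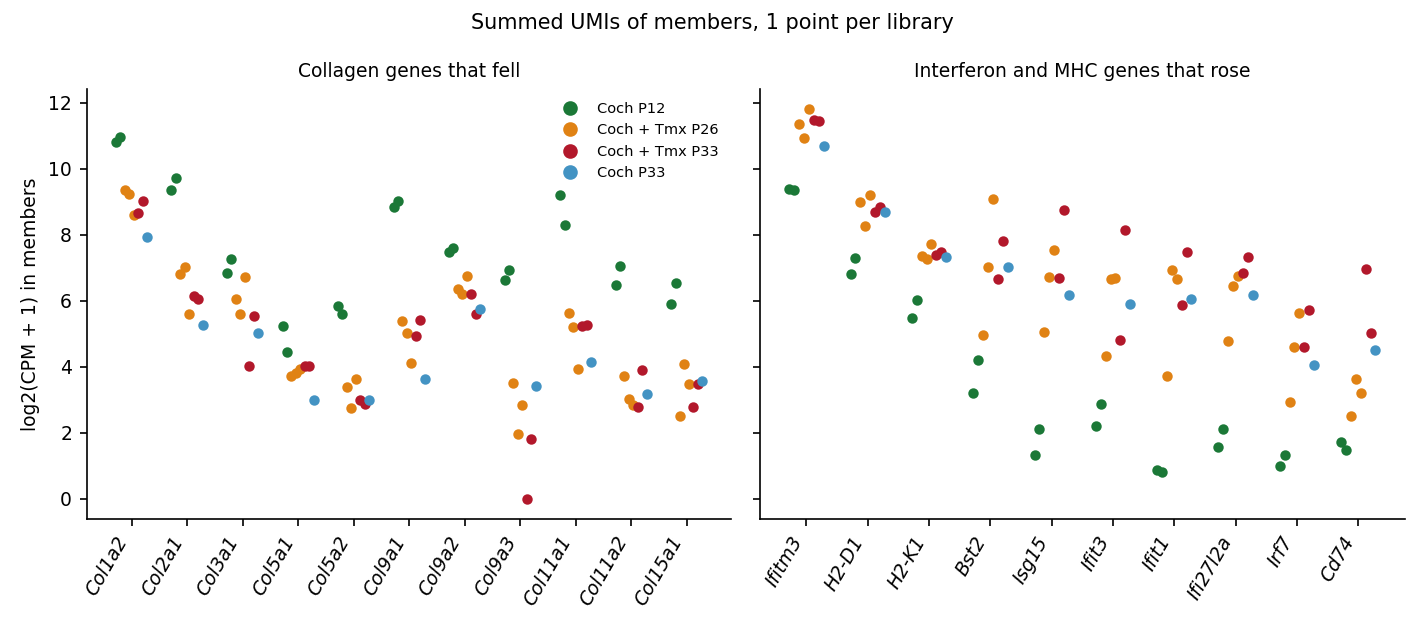
log2(CPM + 1) in the Notum/Emcn cells, 1 point per library, coloured by group, for the 11 collagen genes that fell (left) and 10 of the 11 interferon and MHC genes that rose (right). The 2 Coch P12 points lie above all later points for every collagen gene shown and below them for every interferon gene shown.

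The promoters of 4 of these interferon genes are shown because a common element recurs in them. The motif searched was GAAA, any 2 bases and GAAA again, on either strand, the core of the interferon-stimulated response element, in the 250 bases before the start site. It was present in 3.04% of 27025 promoters in RefSeq (GRCm38.p6). Of the 11 genes that rose 8 had a promoter in that table and 4 held a match. Capitals mark the matches, which may overlap each other. Ifit1 lies on the plus strand (chr19:34640639-34640888) with matches that begin 104 and 85 bases before the start. Isg15 is on the minus strand (chr4:156200819-156201068), with 3 overlapping matches at 78, 72 and 66 bases. For Ifit3, on the plus strand (chr19:34583279-34583528), the table uses a start inside the gene's RefSeq span, which begins at 34583119, with matches at 156 and 122 bases. Bst2 (tetherin) is on the minus strand (chr8:71537473-71537722), with matches at 130 and 124 bases. Each is written 5′ to 3′ on the gene's own strand.
Ifit1: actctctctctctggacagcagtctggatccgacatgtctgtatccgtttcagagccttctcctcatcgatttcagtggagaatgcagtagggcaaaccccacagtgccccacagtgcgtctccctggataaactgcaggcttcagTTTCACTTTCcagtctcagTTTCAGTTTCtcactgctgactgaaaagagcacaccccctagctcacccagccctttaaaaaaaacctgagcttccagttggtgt
Isg15: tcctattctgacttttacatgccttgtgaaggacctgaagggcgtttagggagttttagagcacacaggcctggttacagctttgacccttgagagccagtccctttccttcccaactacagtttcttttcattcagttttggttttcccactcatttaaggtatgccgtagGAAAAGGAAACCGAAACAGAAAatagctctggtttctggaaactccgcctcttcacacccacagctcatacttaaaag
Ifit3: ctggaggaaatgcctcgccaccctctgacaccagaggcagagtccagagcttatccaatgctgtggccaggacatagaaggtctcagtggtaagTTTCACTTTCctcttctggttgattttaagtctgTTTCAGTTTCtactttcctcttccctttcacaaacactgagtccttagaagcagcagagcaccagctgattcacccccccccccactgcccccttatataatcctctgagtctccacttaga
Bst2: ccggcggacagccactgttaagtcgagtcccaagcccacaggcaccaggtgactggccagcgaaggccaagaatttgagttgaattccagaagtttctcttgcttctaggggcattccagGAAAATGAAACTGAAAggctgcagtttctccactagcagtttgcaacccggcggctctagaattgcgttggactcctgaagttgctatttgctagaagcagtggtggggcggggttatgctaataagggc
Ifit3 went from 3.67 and 6.38 CPM to 19.002 to 283 (log2 4.17, SE 0.90, edgeR adjusted p = 0.0273) and Bst2 from 8.33 and 17.3 to 30.4 to 544 (3.78, SE 0.94, edgeR adjusted p = 0.0498). Ifit3 has a close copy, Ifit3b, with which its reads can be split. Ifitm3, Irf7, H2-K1 and H2-D1 held no match, although they rose too, and neither did Ifi47 and Oasl2, which rose outside the list. Of the list genes that were not called, B2m held a match and H2-Aa did not. A match is a description of letters and not of a bound site.

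Genes of the inner ear mesenchyme split. Coch rose, from 1866 and 1867 CPM in Coch P12 to 3381 to 8217 later (log2 1.41, SE 0.29, edgeR adjusted p = 0.0204), and Otor fell, from 7662 and 5434 to 1779 to 3599 (−1.36, SE 0.26, edgeR adjusted p = 0.0151). They were the only 2 of 17 fibrocyte genes tested that passed. Emilin2 (log2 −0.77, edgeR adjusted p = 0.193), Rarres1 (−0.74, 0.148) and Kcnk3 (−1.25, 0.131) did not. Other stromal barcodes moved in the same direction, with pooled levels from 685 to 4440 CPM of Coch and from 752 to 327 of Otor. In the Notum/Emcn cells pooled Coch went from 1866 to 5098 CPM. Macrophage barcodes moved likewise, from 199 to 953 CPM of Coch and from 663 to 173 of Otor. Among the ion transport genes Atp1b2, a subunit of the sodium pump, and its regulator Fxyd1 rose, by 1.25 and 1.03 on the log2 scale, and 0 of 13 fell.

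The Wnt genes that set these cells beside other stroma were not called between ages. Of 8 Wnt target genes tested 0 passed: Nkd1 had a log2 change of −0.26 (edgeR adjusted p = 0.587), Sp5 0.92 (0.0873) and Axin2 0.99 (0.0715). Of 7 ligand and carrier genes 0 passed, of 14 receptor genes Lgr6 rose (1.78, edgeR adjusted p = 0.0126), and of 9 inhibitors Dkk3 rose by 0.86 and Sfrp4 fell by 1.03 on the log2 scale. Dkk3 and Sfrp4 each lost the call but kept the direction in 9 of 17 alternative settings. In a further setting, without cells of foreign marker UMIs, Sfrp4 also lost the call and turned to a log2 change of 0.64. Around the other genes of the rule, 2 of 10 hyaluronan genes rose, both in the inter-alpha-trypsin inhibitor heavy chain family, some members of which Tnfaip6 moves onto hyaluronan: Itih2, from 46.3 and 41.3 CPM to 138 to 200 (log2 1.87, SE 0.20, edgeR adjusted p = 0.000434), and Itih5, from 481 and 404 to 784 to 1348 (1.10, edgeR adjusted p = 0.0292). On the one-carbon list 1 of 11 passed, Bhmt, which rose from 5.997 and 4.847 CPM to 13.0 to 34.1 (2.08, SE 0.30, edgeR adjusted p = 0.00329), and Dmgdh had a log2 change of 0.49 (0.301). Of 18 BMP and TGF-beta genes Bmp2 rose (1.77, edgeR adjusted p = 0.00376). Of the 5 neuropeptide Y system genes and 4 osteoprotegerin-related genes tested outside the rule 0 passed.

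Of 18 IGF and growth factor genes 4 fell and 0 rose (list median −0.30): Igfbp6 (126 and 132 CPM against 11.5 to 40.9, log2 −2.47, SE 0.30, edgeR adjusted p = 0.000997), Igf1 (−1.29), Igfbp3 and the imprinted RNA H19, which had 167 UMIs in Coch P12 and 1 later. Nrep went from 654 and 537 CPM to 32.3 to 64.7, Id4 from 128 and 130 to 17.6 to 60.5, and the proline synthesis gene Pycr1 had a log2 change of −2.42 (edgeR adjusted p = 0.000992). Id4 and Pycr1 were among the genes higher in these cells than in other stroma. On the side that rose, Spp1 (osteopontin) went from 21.2 and 20.4 CPM to 157 to 1057 (log2 4.95, SE 0.71, edgeR adjusted p = 0.0029), complement C4b from 3.498 and 4.337 to 15.2 to 134 (3.61, SE 0.40, edgeR adjusted p = 0.000548), and S100a8, a neutrophil protein, from 1.499 and 5.357 to 19.95 to 113. In macrophage barcodes S100a8 went from 2309 to 4262 CPM, and Spp1 from 1155 to 942. In other stromal barcodes pooled Spp1 went from 165 to 2675 CPM and C4b from 18.6 to 116, so these 2 rises were not particular to the Notum/Emcn cells. Of 15 immediate early and dissociation genes Junb and Hspa1a were called higher and Klf4 lower, and of 3 cell cycle genes Cenpa was lower, from 53.1 and 32.4 CPM to 4.71 to 17.3. Of the marker lists of other cell types, 0 of 7 endothelial, 10 macrophage, 2 epithelial, 6 Schwann and glial, 2 pericyte and smooth muscle, 5 erythroid and 6 neuron genes were called in either direction, while 3 of 7 chondrocyte and osteoblast genes fell, as given above. The summed erythroid markers were 2541 and 7691 CPM in Coch P12 and 3920 to 17857 later, and the Schwann and glial markers 199 and 1729 against 234 to 3958, with overlap between the groups in both. Of the 3 hair cell list genes tested Pvalb was called higher (log2 1.59, edgeR adjusted p = 0.0408), but its level of 495 CPM in Coch P33 stood apart and its change was −0.20 without that library, whose cells also had the highest summed neuron markers (1235 CPM, against 4.71 to 49.6 elsewhere).

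The same comparison in the other stromal barcodes alone called 53 of 9976 genes, 23 higher and 30 lower. The difference of the change between the Notum/Emcn cells and the other stromal barcodes was tested in 1 edgeR model over both, and 19 of 10812 genes passed (0.176%), 8 with a more positive and 11 with a more negative change in the Notum/Emcn cells. No interferon gene was among them and 1 of the collagen list genes was, Col9a1 (difference −1.75, edgeR adjusted p = 0.0198). For Isg15 the log2 change was 5.80 in the Notum/Emcn cells and 4.72 in the other stromal barcodes (edgeR adjusted p of the difference 0.914). Chad changed by −3.23 in the Notum/Emcn cells and −0.12 in the others (difference −3.14, edgeR adjusted p = 0.000106), Igfbp6 by −2.47 and 0.30 (−2.85, 0.000818) and Lox by −1.17 and 0.62 (−1.83, 0.000819). Col13a1 (−2.68 and −0.58), a transmembrane collagen, Mmp11 (−2.01 and −0.07), a stromal metalloproteinase, and Emb (−2.26 and 1.33), a partner of monocarboxylate transporters, were of the same kind. The opposite held for Sncg, synuclein gamma, at 2.83 and 3.57 CPM in Coch P12 and 31.7 to 104 later in the Notum/Emcn cells (log2 4.42, edgeR adjusted p = 7.03e-05) and 0 to 25.7 in the other stromal barcodes (0.29), a difference of 4.11 (edgeR adjusted p = 0.000818). Plpp4, a lipid phosphatase, was at 102 and 93.1 against 56.5 to 144 CPM in the Notum/Emcn cells and changed by −3.75 in the others. Ptn (pleiotrophin), among the most abundant transcripts, had a change of 0.57 and a difference of 0.97 (edgeR adjusted p = 0.0349).

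Leaving out a library moved this count between 3 and 61. Without Coch + Tmx P33 rep 2, Chad, Lox and Sncg were the 3 genes called, and these 3 passed whichever library was left out. Elavl3, Pllp, Syt11, Anks1b and Ank3 are genes of neurons or myelin. In the other stromal barcodes the summed neuron markers reached 2941 CPM in Coch P33 and the Schwann cell markers 14817 in Coch P12 rep 2, and the part of such RNA in these differences was not tested. Sncg is also known from neurons. In the Notum/Emcn cells it was at 66.8 CPM in Coch P33, beside 1235 CPM of summed neuron markers, and at 81.2 and 104 in Coch + Tmx P33, beside 4.71 and 15.2.

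**Figure D5:**
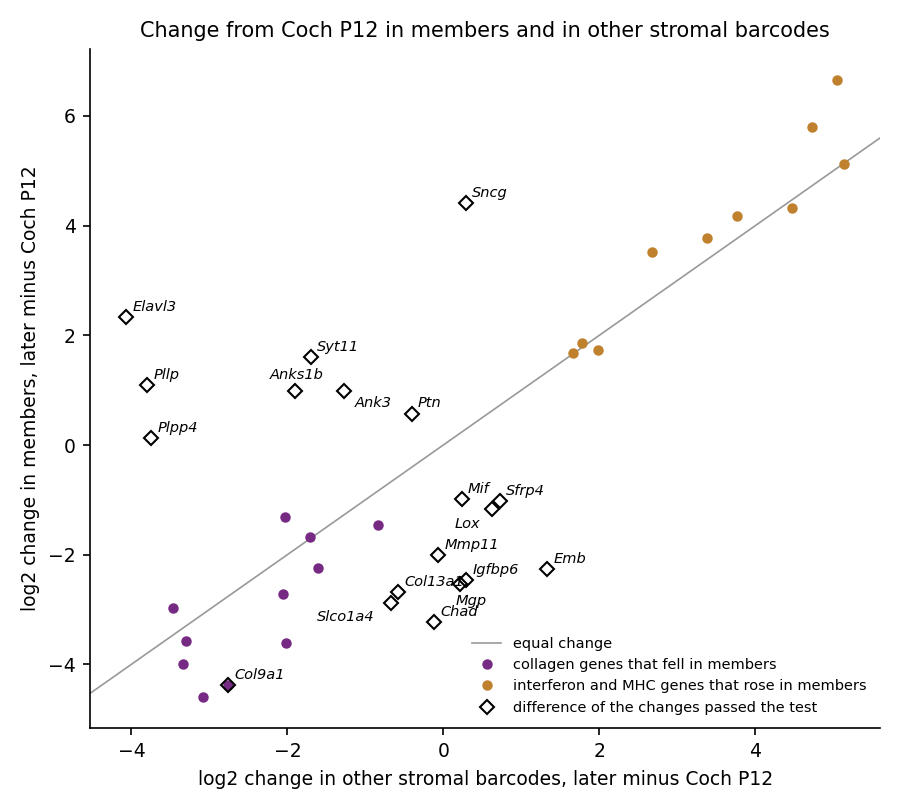
log2 change from Coch P12 to the later libraries in other stromal barcodes (horizontal) and in the Notum/Emcn cells, called members (vertical), for the collagen genes that fell, 10 of the 11 interferon and MHC genes that rose and the genes whose changes differed. The line marks equal change. The collagen genes lie below 0 and the interferon genes above 0 on both axes, and Sncg (4.42 against 0.29) and Chad (−3.23 against −0.12) lie far from it.

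The 2 induced ages were then compared. In Coch + Tmx P33 against Coch + Tmx P26 0 of 10197 genes passed in edgeR (502 at an unadjusted p under 0.05, smallest adjusted p 0.340), and DESeq2 called 5. The largest by p was Cd74, the MHC class II chain, with a log2 difference of 3.29, and its level of 124 CPM in Coch + Tmx P33 rep 1 stood apart. With 1 uninjected library at P33 there is no test of tamoxifen at that age. The Notum level was 379 and 467 CPM in Coch + Tmx P33 and 352 in the uninjected Coch P33 (95% counting interval 326 to 380), Npy 158 and 67.0 against 53.2 (43.2 to 64.8), and Tnfaip6 345 and 310 against 408 (380 to 438). Atoh1 itself, whose transgene and own transcripts cannot be told apart here, was at 52.9 and 36.6 CPM in the Notum/Emcn cells of Coch + Tmx P33 against 19 (13.2 to 26.4) in Coch P33, and at 11.3 to 14.4 in Coch + Tmx P26 against 13.8 and 29.8 in Coch P12. Over all kept barcodes the Coch + Tmx P33 libraries had 524 and 415. Pooled macrophage barcodes went from 10.8 CPM of Atoh1 in Coch P12 to 57.4 in the later libraries. What part RNA from other cells had in the Atoh1 levels was not tested. Fgfr3, the gene whose promoter drives the Cre, was at 1.18 to 8.69 CPM in the Notum/Emcn cells of every library.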

How the data were processed

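Single cells of dissected mouse organs of Corti were captured with the 10x Genomics 3′ v2 chemistry. The authors deposited UMI counts per gene and barcode made with Cell Ranger on mm10 (version not given in the sources used here), filtered to cell barcodes before deposit, 1 matrix of 27998 genes for each of 8 libraries, and nothing was normalized. The counts were joined to groups by the sample labels. Of 8061 barcodes, 1954 had under 500 genes and 84 more had 25% or more mitochondrial UMIs, which left 6023. Barcodes with at least 3 of the 6 genes numbered 1685, and 186 of them were removed for a UMI of Ptprc, Pecam1 or Epcam. The members and gene lists were chosen with earlier results of these data known. Doublet scores (Scrublet in scanpy 1.11.5, with 0.8% doublets assumed per 1000 barcodes) marked 41 barcodes (0.681%), 7 of them members, and these were kept except in 1 alternative.

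UMIs were summed per library over the members and tested in R 4.3.3 with edgeR 4.0.16 (filterByExpr, TMM, quasi-likelihood, Benjamini-Hochberg threshold 0.05), with the 9 genes of the rule left out of calls and all 4 groups sharing 1 spread. The change later minus Coch P12 was the mean of the 3 later group means minus Coch P12. The difference from other stromal barcodes was fitted over both sets with library as a term. The ratios to other stromal barcodes used CPM with 1 CPM added. DESeq2 1.42.0, no low-count filter, a replicate block, 4 of 6 genes, 10% mitochondrial UMIs, removal of doublet scores or of cells with 3 or more foreign marker UMIs, and leaving out each library were alternatives. Cells with a Notum UMI, cells with Otor and Rarres1 UMIs, the difference test, and for the stromal contrast a depth window of 3000 to 15000 UMIs were added after the data were seen. The fit was tested on simulated data, in which known changes were recovered and false calls were somewhat more frequent than the threshold states, so calls near it are less firm. Genes named were the 7 markers, the 10 largest rises and 10 largest falls with no overlap and at least 50 UMIs, the 20 highest and 10 lowest against other stroma at least 2-fold apart in every library, members of the lists that a count turns on, and the genes of the difference test. Summing in Python 3.11.15 used numpy 2.4.6 and scipy 1.17.1. Total depth was 3972800 to 13423524 UMIs a library, intervals cover counting error only (95%, exact), and 0 counts were bounded by 3. Some items are not reported here. Promoter and gene positions are from RefSeq (GRCm38.p6, the same assembly as mm10).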

Additional observations from a re-analysis of the deposited data

Results flagged for a closer look

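In 75 sets of 6 later libraries, for the share of cells and for each gene examined, 11 had a library far from the others by Dixon's criterion, which chance gives in about 1 set in 20. Coch + Tmx P33 rep 2 stood high for Ibsp (230.0 CPM), Ifit3 (283 CPM), Ifi47 (37.9 CPM) and H19 (1.26 CPM, a single UMI). Coch + Tmx P33 rep 1 stood high for Cd74 (124 CPM) and Helt (1.18 CPM, a single UMI). Coch P33 stood high for Pvalb (495 CPM) and Bglap3 (1.09 CPM) and low for Col5a1 (7.06 CPM). Coch + Tmx P26 rep 1 stood high for Pcolce2 (134 CPM), and the P26 library labelled rep 3 held the only later Bglap UMI (1.03 CPM). The cause was not tested in any of them.

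In 19 genes the change from Coch P12 differed between the Notum/Emcn cells and the other stromal barcodes, as log2 change in the first minus that in the second, by the edgeR test of the difference. It was more negative for Emb (−3.60), Chad (−3.14), Mgp (−3.02), Igfbp6 (−2.85), Slco1a4 (−2.26), Col13a1 (−2.07), Mmp11 (−1.96), Lox (−1.83), Col9a1 (−1.75), Sfrp4 (−1.73) and Mif (−1.24). It was more positive for Elavl3 (6.45), Pllp (4.37), Plpp4 (4.14), Sncg (4.11), Syt11 (3.02), Anks1b (2.74), Ank3 (2.25) and Ptn (0.97).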

How the results depend on the processing

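The share of cells turned with depth: the later minus Coch P12 difference was 0.514 points after thinning to 2000 UMIs, and −17.1 to −13.0 with each library left out. The count of genes changed from Coch P12 was 1044 with no low-count filter, 326 with DESeq2 (280 genes shared), 80 of 3813 without cells of 3 or more foreign UMIs, and 98 to 586 with each library left out (98 without Coch P12 rep 1, 586 without Coch P12 rep 2). For the 2 induced ages the count was 5 with DESeq2, 105 with no filter, 3 in cells with Otor and Rarres1 UMIs, and 0 to 1 with each library left out. Against other stromal barcodes 7 genes were at least 2-fold lower in every library within 3000 to 15000 UMIs and 98 when only cells with a Notum UMI were used, against 38, and the higher counts were 38 and 64 against 45. Within that depth window 24 of the 45 higher and 5 of the 38 lower genes were shared. The log2 change of Sfrp4 was 0.64 without cells of foreign UMIs. That of Pvalb was −0.048 with 4 of 6 genes and −0.20 without Coch P33, and it ran from −0.20 to 2.27 over the libraries left out. Of 1403 values of 85 named genes under these alternatives 1222 kept their direction and side of the threshold, 178 kept their direction only and 3 turned. Of 171 values of the 19 difference genes 120 kept both and 51 the direction only. The cause of these moves was not tested, except that fewer cells or genes entered where they were removed.

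Whether replicate numbers pair the libraries could not be decided. The correlation of same-numbered deviations ran from −0.22 to 0.09, but deviations in a group of 2 libraries mirror each other, so few of these values are independent. With a replicate block over the numbered libraries the counts were 390 for later against Coch P12 and 0 for the 2 induced ages. Depth limits what genes of low counts can show, and 2 libraries at P12 and 1 uninjected library at P33 limit every comparison with them.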

Other observations

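Several of the genes high in the Notum/Emcn cells were chromosomal neighbours. Of the 49 such genes, those of the rule included, 45 could be placed among 11403 measured genes with a RefSeq position, and 7 pairs were next to each other in that order. On chromosome 11 Notum lay between Pycr1 and Aspscr1. On chromosome 13 Bhmt, Bhmt2 and Dmgdh stood in a row, with 18338 bases between the first pair and 133 between the second. On chromosome 3 Lxn lay beside Rarres1 and Gm567 beside Emcn, and on chromosome 10 Gas2l3 beside Nr1h4. Notum, Bhmt2 and Emcn are genes of the rule, so the pairs that hold them were partly set by it. Lxn with Rarres1 and Gas2l3 with Nr1h4 were the only pairs without such a gene. The pairs were found by looking at the list and no test was made of their number.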
